A study of Arabidopsis thaliana with 8 samples.

Results

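Messenger RNA methylation at N6-adenosine (m6A) is described here for 10 heat shock and chaperone genes of Arabidopsis thaliana, chosen by gene identifier, with no measured value in the rule. They are the cytosolic HSP70 genes HSC70-1 (AT5G02500), HSC70-2 (AT5G02490) and HSC70-3 (AT3G09440), the plastid HSP70 gene cpHSC70-1 (AT4G24280), and the endoplasmic reticulum (ER) HSP70 genes BIP1 (AT5G28540) and BIP2 (AT5G42020). The others are the cytosolic HSP90 genes HSP90.1 (AT5G52640) and HSP90.2 (AT5G56030), HSP101 (AT1G74310) and the heat shock factor gene HSFA1A (AT4G17750). These are 10 of the 14304 genes with a listed m6A peak in either genotype. They hold 20 of the 20696 peaks of the mutant list and 19 of the 20521 peaks of the wild-type list.

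The groups were whole seedlings of 14 days, all of the ecotype Columbia-0: the mutant atalkbh10b-1, labelled homozygous, and wild type. The mutation lies in ALKBH10B, whose protein removes methyl groups from m6A. For each genotype, 2 pull-down libraries made with an antibody against m6A and 2 input libraries were labelled as biological replicates. The labels mention no heat treatment. The value of a peak is the authors' log2 enrichment of pull-down over input, given for each replicate. The lists also name a further replicate that the labels do not describe, and its values were not used, so a peak may rest in part on it. The value is a ratio and gives no measure of how much of a transcript there was, and the depth behind it is unknown because no counts were used.

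HSP70 proteins hold and release unfolded stretches of client proteins in cycles driven by ATP. HSP90 proteins act later, on clients such as receptors and kinases, and HSP101 pulls proteins out of aggregates together with the HSP70 system. Heat shock factors of the A1 class switch on heat-inducible chaperone genes, and BiP proteins fold proteins that enter the ER. In plants m6A is found mainly towards the 3′ end of messenger RNAs, where reader proteins with a YTH domain can bind it.

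All 10 genes had a listed peak in at least 1 genotype. They were chosen with earlier results of these data known, so this full listing is not a result about them. Both lists held 7 of them, the mutant list alone held HSC70-2, and the wild-type list alone held HSP101 and HSFA1A. Among all genes with a peak, 77.4% were common to the lists, 9.54% were specific to the mutant list and 13.0% to the wild-type list. The shares of the 10 genes lay near this background. Each genotype has 1 list, so a gene missing from a list has no replicate check, and transcript amounts were not examined.

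Most of the listed chaperone genes held more than 1 peak. Of the 8 genes in the mutant list, 7 had more than 1 peak, against 42.5% of all mutant-listed genes. Of the 9 genes in the wild-type list, 7 had more than 1 peak, against 39.8% of all wild-type-listed genes. These counts keep peaks with touching borders apart. Joined, the mutant peaks of HSC70-3, BIP1 and BIP2 form a single region per gene, as do the wild-type peaks of HSC70-3 and BIP2. The shares over all genes with touching peaks joined are not given here. Peak borders are given in bases from the start of the gene model, as in the lists, and no source used here says whether introns are counted.

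**Figure D1:**
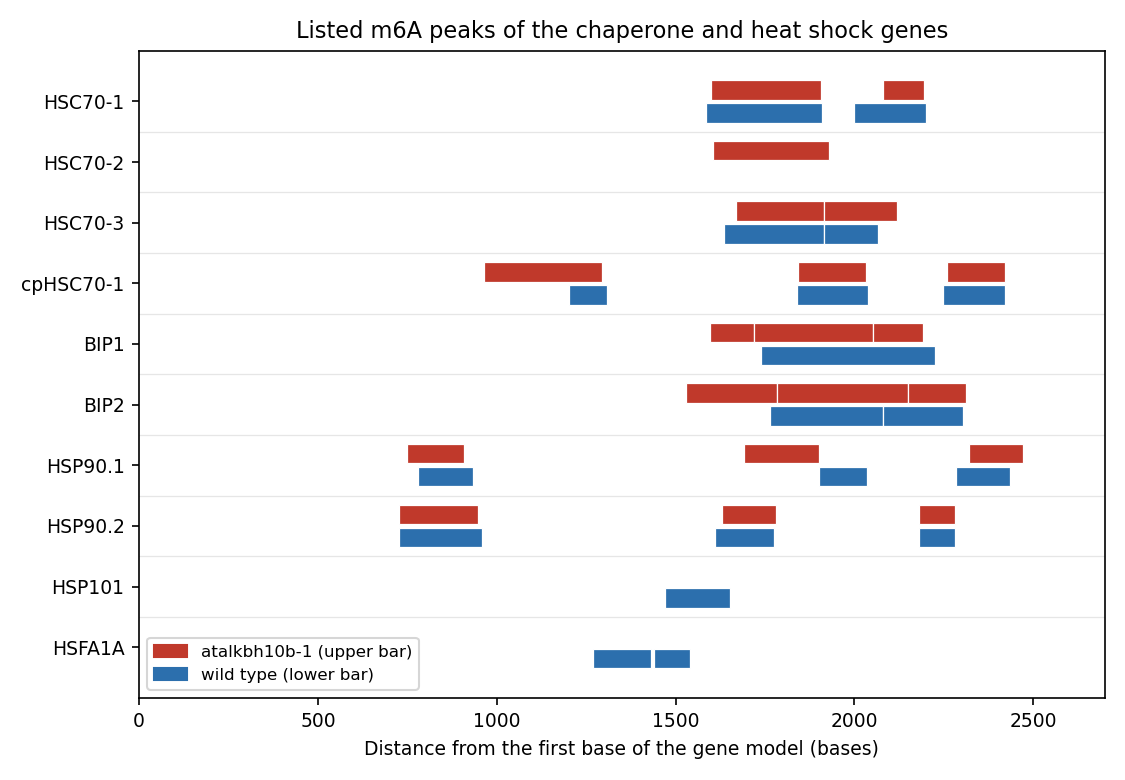
Listed m6A peaks of the 10 genes, drawn by distance from the first base of the gene model in bases, with atalkbh10b-1 above wild type in each row. The cytosolic and ER HSP70 peaks all begin at base 1529 or beyond, and both HSP90 genes have an early, a middle and a late peak.

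The cytosolic and ER HSP70 genes shared a layout. The first and the last of their peaks, both in BIP2 in the mutant, began at bases 1529 and 2149, and nothing was listed before base 1529 in any of these 5 genes. The first peaks of the cytosolic genes lay at nearly the same bases, 1599 to 1907 in HSC70-1, 1605 to 1928 in HSC70-2 and 1670 to 1915 in HSC70-3, all in the mutant. These proteins are close relatives of one another, as are BIP1 and BIP2, and HSC70-1 lies beside HSC70-2 on chromosome 5. How the authors assigned reads that match more than 1 copy is not given, so peaks of these genes and of HSP90.2, which has near-identical neighbours, are uncertain as to their gene.

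In HSC70-3, BIP1 and BIP2 several peaks touched, the next one starting at the base after the last one ended. This held for 8 of the 20 mutant peaks and 4 of the 19 wild-type peaks of the 10 genes, against 5.56% of all mutant peaks and 4.17% of all wild-type peaks. Joined, the 3 touching mutant peaks of BIP1 spanned 594 bases (1597 to 2190), where wild type had a peak of 487 bases (1739 to 2225). The 3 touching mutant peaks of BIP2 spanned 784 bases (1529 to 2312), and the 2 touching wild-type peaks 539 bases (1764 to 2302). In HSC70-3 the border between the touching peaks fell after base 1915 in both lists. The wild-type BIP1 peak stood at percentile 99.97 of width in its list.

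HSC70-1, a constitutive chaperone of cytosol and nucleus, had values from 1.01 to 2.61 on the log2 scale. Its first peak had 2.29 and 1.87 in the mutant, against 1.33 and 1.84 in wild type. Both mutant values were above both wild-type values, the nearest by a narrow margin. The log2 difference, mutant minus wild type, was 0.49 with a standard error of 0.91 from limma (95% interval -1.99 to 2.98). Its second peak, at bases 2081 to 2193 in the mutant and 1998 to 2199 in wild type, had 1.01 and 2.61 in the mutant, against 1.71 and 1.18 in wild type. Here the genotypes overlapped, the mutant replicates lying on either side of the wild-type ones.

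HSC70-3, a cytosolic relative of HSC70-1, had close replicates at its first peak, with 2.35 and 2.27 in the mutant, against 1.90 and 1.89 in wild type. The genotypes did not overlap there, and the log2 difference was 0.41 (standard error 0.88). The touching second peak had 1.74 and 0.75 in the mutant, against 1.85 and 0.75 in wild type. The values were nearly equal between genotypes and differed more between replicates. In the RefSeq table HSC70-3 overlaps AT3G09430, which had no listed peak in either genotype.

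HSC70-2 had a peak in the mutant list, with log2 enrichments of 0.54 and 5.01. The replicates stood 4.46 apart, at percentile 81.6 of mutant peaks. With 1 low and 1 high value, and with the peak at bases where HSC70-1 and HSC70-3 have theirs, its listing in the mutant alone is not a measured difference between the genotypes.

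cpHSC70-1 encodes a stromal chaperone that takes part in protein import into chloroplasts. It had 3 peaks in each genotype, and the last 2 had the highest means of the HSP70 peaks in both lists. The first, at bases 964 to 1292 in the mutant and 1201 to 1307 in wild type, had 1.78 and 0.66 in the mutant, against 1.02 and 0.14 in wild type. The second, at bases 1841 to 2031 in the mutant, had 3.91 and 2.89 in the mutant, against 3.05 and 3.62 in wild type.
Its last peak, at bases 2260 to 2420 in the mutant, had 3.83 and 3.48 in the mutant, against 3.92 and 4.32 in wild type. In both genotypes both replicates were higher at the second peak than at the first. From the second to the last peak the mean changed from 3.40 to 3.65 in the mutant, within the replicate spread, while both wild-type replicates were higher at the last. The genotypes did not overlap at the last peak, with both mutant values the lower (log2 difference -0.47, standard error 0.90).

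BIP1 and BIP2 encode the main luminal HSP70 proteins of the ER. In the mutant BIP1 had 1.43 and 1.67 at its first peak, 2.55 and 2.05 at its second and 1.91 and 2.13 at its last. In wild type its wide peak had 1.95 and 2.11. The second mutant peak and the wide wild-type peak, which form a shared pair, differed by 0.27 (standard error 0.90), with overlapping values. BIP2 had 1.24 and 0.88 at its first mutant peak, which overlapped the first wild-type peak by its last bases.

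The second mutant peak of BIP2 had 1.85 and 1.66, against 1.16 and 2.23 at the wild-type peak paired with it. The last BIP2 peak had 2.38 and 2.10 in the mutant, against 2.91 and 2.93 in wild type. Both mutant values of this last peak lay below both wild-type values, with a log2 difference of -0.68 (standard error 0.88, 95% interval -3.10 to 1.74). With 2 replicates a genotype, limma draws each peak's spread towards that of all peaks, so these intervals are wide even where replicates lay close.

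HSP90.1, the heat-inducible cytosolic HSP90 gene, carried the largest difference of the 10 genes. Its last peak, at bases 2321 to 2470 in the mutant and 2283 to 2435 in wild type, had 2.87 and 2.55 in the mutant, against 8.88 and 8.55 in wild type. The replicates agreed closely within each genotype and the genotypes lay far apart. The log2 difference was -6.00 (standard error 0.89, 95% interval -8.44 to -3.56), and 61 of the 13875 shared pairs of all genes had a lower one. In the wild-type list 140 peaks had a higher mean. The difference did not pass limma's test over all pairs (unadjusted p = 0.0022, Benjamini-Hochberg adjusted p = 0.9996), in which 0 pairs of any gene passed.

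The other HSP90.1 peaks had values nearer to each other. The first, at bases 750 to 908 in the mutant and 781 to 934 in wild type, had 3.16 and 2.99 in the mutant, against 2.53 and 2.19 in wild type. Both mutant values were the higher, with a log2 difference of 0.71 (standard error 0.89). The middle peak ended at base 1900 in the mutant and began at base 1901 in wild type, so that the 2 peaks touch but share no base. It had 2.28 and -0.53 in the mutant, against 2.81 and -0.27 in wild type, high in replicate 1 and below 0 in replicate 2 of both genotypes.

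HSP90.2, a constitutive cytosolic HSP90 gene, also had an early, a middle and a late peak in both lists, with lower means than the peaks of HSP90.1 in the same order. The first peak began at base 726 in both lists and had 1.20 and 2.05 in the mutant, against 1.48 and 2.20 in wild type. The middle peak, at bases 1631 to 1780 in the mutant and 1611 to 1775 in wild type, had 1.22 and 0.08 in the mutant, against 1.20 and 0.33 in wild type. The genotypes overlapped at both.
The last peak had the same borders in both lists, bases 2181 to 2280, as did 1.49% of all pairs. It had 1.02 and 0.20 in the mutant, against 1.01 and 1.07 in wild type, again overlapping. The 3 log2 differences were -0.21, -0.11 and -0.43, each with a standard error near 1. At the last peak the log2 difference was thus -6.00 in HSP90.1 and -0.43 in HSP90.2, and whether the genes differ in this was not tested.

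**Figure D2:**
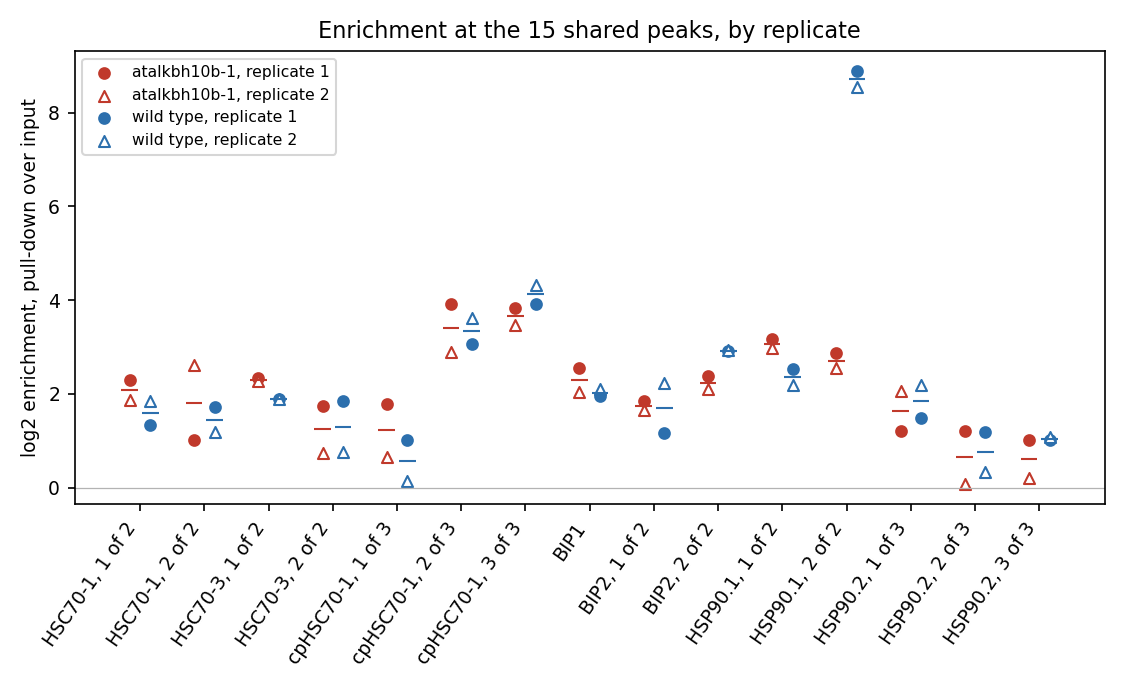
Log2 enrichment of pull-down over input at the 15 shared peaks, with replicate 1 as filled circles, replicate 2 as open triangles and genotype means as bars. The last HSP90.1 peak stands at 8.88 and 8.55 in wild type, while the mutant values there, 2.87 and 2.55, lie among those of the other peaks.

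HSP101, required for acquired thermotolerance, had a wild-type peak at bases 1471 to 1650 with -6.51 in replicate 1 and 7.85 in replicate 2. The replicates disagreed in sign, and 19 of the 20521 wild-type peaks had a larger difference between replicates. The listing therefore rests on replicate 2 among the replicates used. In the RefSeq table HSP101 overlaps AT1G74300, which had no listed peak.

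HSFA1A, a master activator of the heat response, had a pair of wild-type peaks with 10 bases between them. The first, at bases 1269 to 1430, had 4.35 and 1.38, and the second, at bases 1441 to 1540, had 1.61 and 3.14. All 4 values were above 1, although a different replicate was the higher at each peak. No HSFA1A peak was listed in the mutant.

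By position, 17 of the 20 mutant peaks overlapped a wild-type peak of the same gene by at least 1 base, against 69.3% of all mutant peaks. In the other direction 15 of the 19 wild-type peaks overlapped a mutant peak, against 69.4% of all wild-type peaks. The mutant peaks without a partner were those of HSC70-2, the first of BIP1 and the middle one of HSP90.1. The wild-type ones were those of HSP101 and HSFA1A and the middle one of HSP90.1. At a reciprocal overlap of at least 50% a partner remained for 14 mutant and 14 wild-type peaks. The share of all peaks at that setting is not given here.

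To ask whether enrichment differed in the absence of the demethylase, the genotypes were compared at 15 pairs of peaks in 7 genes, matched by their largest mutual overlap. At least 1.5-fold higher in the mutant were 2 pairs (the first of HSP90.1 and the first of cpHSC70-1), against 32.4% of all pairs. The cpHSC70-1 pair shared 92 bases of a mutant peak of 329 bases, and at a reciprocal overlap of 50% it was no longer a pair. At least 1.5-fold lower were 2 pairs (the last of HSP90.1 and the last of BIP2), against 32.1%. Without mutant replicate 1 the lower pairs numbered 5, and without either wild-type replicate 3. The shares of all pairs with a replicate left out are not given here. The other 11 pairs lay within 1.5-fold, a share of 73.3%, against 35.5% of all pairs. The median log2 difference of the 15 pairs was 0.05, against -0.02 over all pairs, and the median absolute difference 0.41, against 0.92.

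The genotypes did not overlap at 6 pairs. The mutant was the higher at 3 of these, against 13.7% of all pairs, and the lower at 3, against 15.0%. The 3 higher pairs were the first of HSC70-1, HSC70-3 and HSP90.1, and the 3 lower ones the last of cpHSC70-1, BIP2 and HSP90.1. In limma's test 0 of the 15 pairs passed after adjustment over all 13875 pairs, where 0.00% passed. At an unadjusted p under 0.05 stood 1 of the 15, the last HSP90.1 pair, against 3.54% of all pairs. The p-values rest on the spread between these libraries, with that of each pair drawn towards the spread of all pairs. Nothing says how far the replicates were grown apart.

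**Figure D3:**
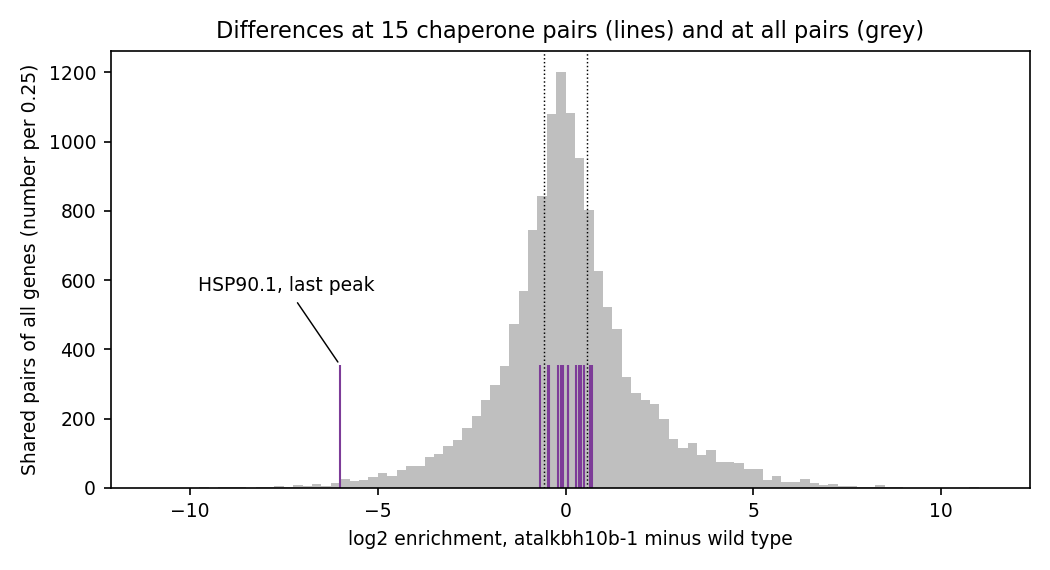
Log2 difference in enrichment, atalkbh10b-1 minus wild type, at the 15 chaperone pairs (purple lines, whose height has no meaning) and at all 13875 pairs (grey, pairs per 0.25). Dotted lines mark a ratio of 1.5, and all purple lines but that of the last HSP90.1 peak at -6.00 lie between -0.68 and 0.71.

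Replicates differed little at most of these peaks. The median absolute log2 difference between replicates was 0.46 for the 20 mutant peaks, against 1.79 for all mutant peaks. It was 0.57 for the 19 wild-type peaks, against 1.46 for all wild-type peaks. At the 6 mutant peaks of BIP1 and BIP2 the replicate differences ran from 0.19 to 0.51, and at their 3 wild-type peaks they were 0.16, 1.07 and 0.02. The widest were HSC70-2 in the mutant (4.46) and HSP101 in wild type (14.36), each listed in 1 genotype alone.
The median mean enrichment was 1.92 in the mutant and 1.84 in wild type, against 2.45 over all peaks of either list. Both replicates reached a log2 enrichment of 1 in 13 of the 20 mutant peaks and 14 of the 19 wild-type peaks, against 64.6% and 68.2% of all peaks of those lists.

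**Figure D4:**
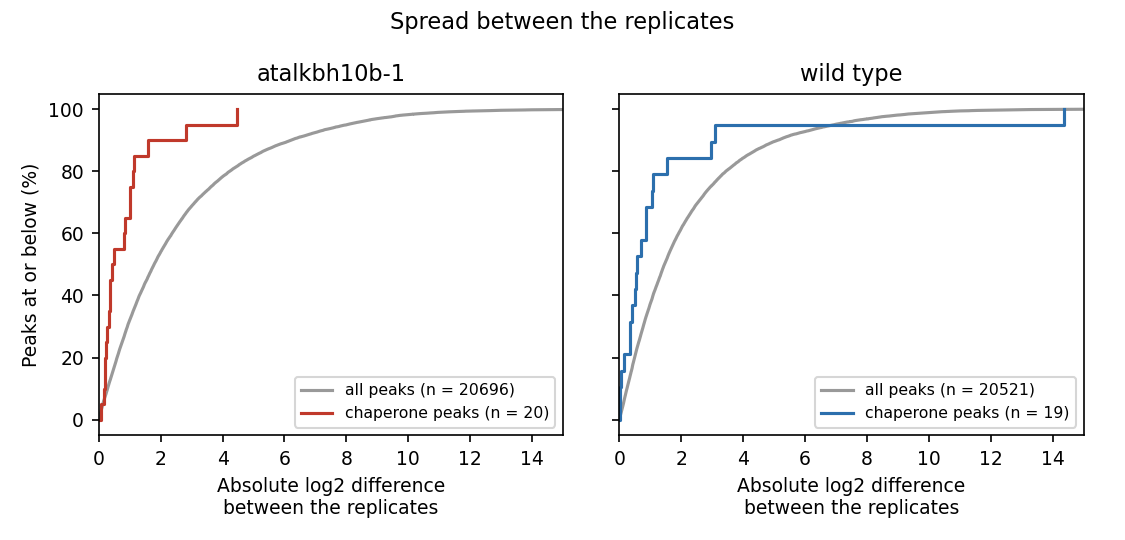
Cumulative share of peaks by the absolute log2 difference between replicates, for the chaperone peaks (coloured steps) and for all peaks (grey), in atalkbh10b-1 on the left and wild type on the right. The chaperone steps lie left of the grey line over most of their course and end at HSC70-2 with 4.46 in the mutant and HSP101 with 14.36 in wild type.

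The last peak of a gene was not always the most enriched. Among genes with more than 1 peak, it was the highest in 2 of 7 in the mutant (cpHSC70-1 and BIP2), against 63.1% of all such genes. In wild type it was the highest in 3 of 7 (cpHSC70-1, BIP2 and HSP90.1), against 72.4%. These counts keep touching peaks apart. Joined, HSC70-3 and BIP2 have a single region in either genotype, as has BIP1 in the mutant, and so no separate last peak. The shares over all genes with touching peaks joined are not given here. In HSP90.1 the last peak had a mean of 2.71 in the mutant, where the first had 3.07, and of 8.71 in wild type, where the first had 2.36.

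The wider chaperone and heat stress system was followed in 91 further genes. Peaks were listed for 65 of them, for 53 in both genotypes, for 3 in the mutant only and for 9 in wild type only. As shares of these 65 genes, 81.5%, 4.62% and 13.8% lay near the 77.4%, 9.54% and 13.0% of all listed genes. Several groups were listed in both genotypes throughout: all 5 other HSP90 genes, all 4 other CLP or HSP100 genes, all 8 chaperonin genes and all 10 genes of ER folding and the unfolded protein response. Of 11 other HSP70 genes, 8 were in both lists, HSP70B was in the wild-type list only and 2 had no peak. Of 22 co-chaperone genes, 16 were in both lists, BAG6 and FES1A were in the wild-type list only and 4 had no peak.

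Many heat shock factor and small heat shock protein genes had no peak. The share of all annotated genes without a listed peak is not given here, so these counts have no background. Of the 20 heat shock factor genes beside HSFA1A, 11 had none, 2 were in both lists, HSFC1 was in the mutant list only and 6 were in the wild-type list only. With HSFA1A, 7 of the 10 listed factor genes were in wild type alone, against 13.0% of all listed genes, and 1 in the mutant alone, against 9.54%. This count of factor genes was itself not planned. A setting in which both replicates had to reach a log2 enrichment of 1 was added for it after the data had been seen. There 6 of 8 listed factor genes were in wild type alone, against 21.1% of all genes then listed. In the mutant alone was 1, against 15.0%. These 6 are not all among the 7: HSFA1B and HSFA4A dropped out, and HSFB1, which the full lists share, entered. Of 11 small heat shock protein genes, HSP17.4 and HSP23.5 were listed, both in the mutant alone, against 9.54% of all listed genes. The other 9 had no peak, so this rests on 2 genes. Whether the transcripts of the factor and small heat shock protein genes differ in amount between the genotypes was not tested.

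The factor genes of wild type alone differed in how well their replicates repeated. HSFB2B, a repressor of heat-inducible factor genes, had 4.87 and 4.38, and HSFA5 had 7.11 and 3.95. HSFA4C had 4.32 and 7.13 at its first peak but 2.62 and -0.47 at its second. HSFA8 likewise had 2.89 and 1.53 at its first peak but 3.13 and -1.06 at its second. HSFA1B, a relative of HSFA1A, had 2.38 and 0.71, and HSFA4A had 0.27 and 4.00, so that each had a value under 1. In the mutant HSFC1 had 1.05 and 0.80 at its first peak and 1.67 in both replicates at its second.
HSP17.4, a cytosolic small heat shock protein gene, had 4.26 and 5.36 in the mutant. HSP23.5, whose protein belongs to the mitochondrion, had 4.15 and 7.69 at its first peak and 1.25 and 0.99 at its second, also in the mutant. Of the remaining genes of wild type alone, BAG6, a calmodulin-binding co-chaperone gene, had 7.88 and 9.44 at its first peak and 5.09 and 2.78 at its second. FES1A, which is needed for thermotolerance, had 2.58 and 2.36, and HSP70B had 3.45 and -2.47.

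**Figure D5:**
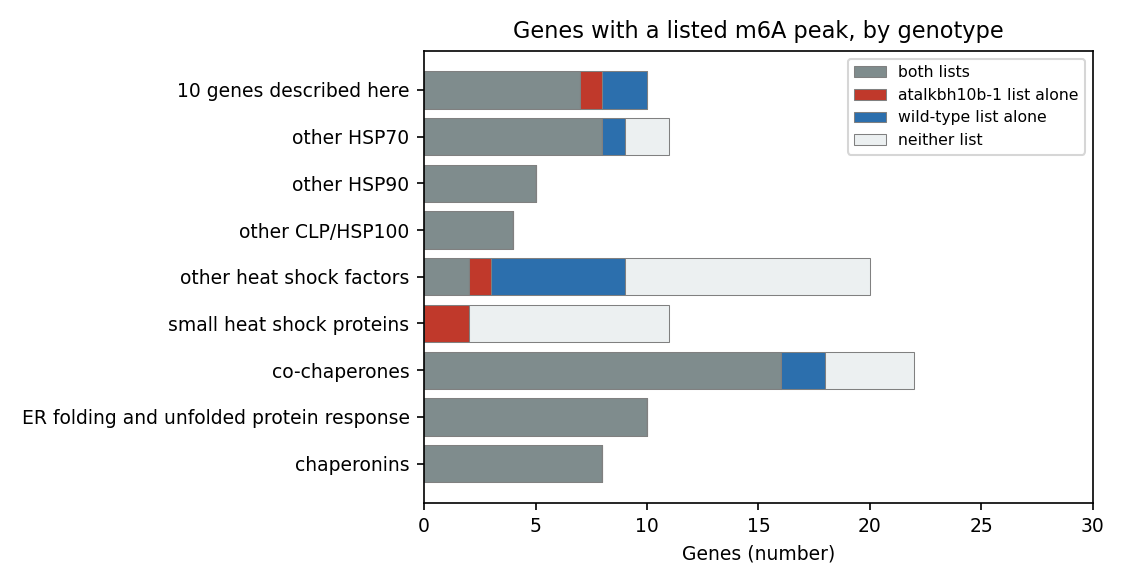
Number of genes with a listed m6A peak in both lists, in 1 of the lists or in neither, for the 10 genes and the 8 wider groups. Heat shock factors have 6 genes in the wild-type list alone and 2 in both, while chaperonins, ER folding genes, HSP90 and CLP genes are in both lists throughout.

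Of the 84 shared pairs of the wider groups, 49 lay within 1.5-fold (35.5% of all pairs did), 13 were higher in the mutant by that ratio or more (32.4% of all pairs) and 22 were lower (32.1% of all pairs), with a median log2 difference of -0.05. In limma's test 0 passed, with a smallest adjusted p of 0.9996, and 1 of the 84 stood at an unadjusted p under 0.05, against 3.54% of all pairs. This was CLPB4, a mitochondrial relative of HSP101, with 9.24 and 8.29 in the mutant, against 2.36 and 5.28 in wild type, a log2 difference of 4.94 (standard error 1.38). The next highest were MTHSC70-2, a mitochondrial HSP70 gene (2.74), and the ER stress factor gene bZIP28 (2.40), both with replicates apart by more than the difference itself in the mutant.
The lowest was the mitochondrial chaperonin gene HSP60-3A, with 2.20 and 0.76 in the mutant, against 9.21 and 4.02 in wild type (log2 difference -5.14, standard error 2.06). HOP2, a co-chaperone that joins HSP70 to HSP90, followed with -4.43, and IRE1B, an ER stress sensor gene, with -4.30. Compared with these, the last HSP90.1 peak combined a larger difference with closer replicates.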

How the data were processed

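The authors deposited 1 m6A peak list per genotype, and per the file headers each row gives a gene, a start, an end and a log2 enrichment per replicate. TAIR10 is the build, and TopHat2 2.0.14 and edgeR are the tools, named without a role per the submitters' processing notes. The sources used here give neither the peak caller and its thresholds nor the enrichment formula. The headers name 3 replicates and the labels 2, so 2 value columns were not used. The deposited log2 values were used unchanged, with no pseudocount.

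Peaks of the lists were paired within a gene by largest mutual overlap (at least 1 base). All 13875 pairs were fitted in R 4.3.3 with limma 3.58.1 (moderated test, no replicate block, Benjamini-Hochberg adjustment over all pairs, threshold 0.05), and genotype means apart by a ratio of at least 1.5 were counted as higher or lower. The fit was also run on simulated data, the outcome of which is not given here. Gene symbols came from the RefSeq table of TAIR10.1, and its gene coordinates gave the overlapping and neighbouring genes. They were not used to place peaks. The rule for named genes took every peak of the 10 genes. Of 91 genes in wider lists it took those listed in 1 genotype and the 3 highest and 3 lowest differences, and it took the 3 genes most like HSC70-1. Genes and lists were chosen with earlier results of these data known. Alternatives were other overlaps, stricter enrichment, centring, gene means, a ratio of 2, a replicate block and leaving out each replicate. Python 3.11.15, pandas 2.3.3 and matplotlib 3.10.9 were used.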

Additional observations from a re-analysis of the deposited data

How the results depend on the processing

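The test called 0 chaperone pairs with reciprocal overlap of 50%, all 4 values at least 1, centring, gene means and each replicate left out (range 0 to 0). As 0 pairs of any gene were called in these settings either, this says nothing about stability. With a replicate left out, the lone library of that genotype is assumed to vary like the other genotype. Same-numbered libraries did not deviate together (Pearson's r = 0.0068 over 13875 pairs), and with a replicate block 0 pairs were called as well. With both replicates at 1 or more, 13 mutant and 14 wild-type peaks remained of 20 and 19. At a ratio of 2, 0 pairs were higher and 1 lower. With reciprocal overlap 1 was higher, as the first cpHSC70-1 pair no longer counted. Leaving out a replicate gave 2 to 3 higher and 2 to 5 lower pairs, the 5 without mutant replicate 1. For these counts by ratio, the shares of all pairs at the changed settings are not given here. Centring turned the second HSC70-3 difference to 0.0255. Leaving out a replicate gave ranges across 0 for the second peaks of HSC70-1 (-0.43 to 1.16), HSC70-3 (-0.60 to 0.49) and cpHSC70-1 (-0.44 to 0.57), the first BIP2 pair (-0.48 to 0.59) and the first (-0.64 to 0.21) and middle (-0.68 to 0.46) HSP90.2 peaks. The last HSP90.1 difference ranged from -6.17 to -5.83. The cause of these changes was not tested. Depth is unknown, so its effect could not be measured.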

Other observations

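Several of the chaperone peaks had replicate 1 above replicate 2 by a like amount in both genotypes. The middle HSP90.1 peaks differed by 2.81 in the mutant and 3.07 in wild type, although they share no base, and the second HSC70-3 peaks by 1.00 and 1.10. The middle HSP90.2 peaks differed by 1.13 in the mutant and 0.87 in wild type. This was not general. The sign of the replicate difference was the same in both genotypes at 7 of the 15 chaperone pairs, against 50.1% of all pairs. At the first HSP90.2 peaks replicate 2 was the higher, by 0.85 in the mutant and 0.71 in wild type. Replicate 1 was the higher at 15 of the 20 mutant peaks, against 54.4% of all mutant peaks. In wild type it was the higher at 9 of the 19, against 49.9%.

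The shared peaks closest to the first HSC70-1 peak over the 4 values lay in PIP1B (AT2G45960), an aquaporin gene, in AT3G52220 and in DJ1F (AT3G54600). PIP1B had 2.33 and 1.71 in the mutant, against 1.42 and 1.83 in wild type, and differed from HSC70-1 by at most 0.16 in any library. Within 0.5 of HSC70-1 in all 4 libraries were 95 of the 13875 pairs.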
